A study of Salmo salar with 8 samples.

Results

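Chaperone and heat shock genes of the Atlantic salmon gill were described in single nuclei sampled through smoltification and after transfer to seawater. The members were the rows of the count tables whose names begin as those of heat shock proteins, J-domain proteins, subunits of the TRiC chaperonin, prefoldin subunits, FK506-binding proteins, BAG proteins and the co-chaperones stip1 and ahsa1. No row name began with stip1 or ahsa1, so neither was among the members. The rule reads names and no counts, and 60 of the 34514 listed genes were members. They held 123105 of the 27390978 unique molecular identifiers (UMIs), each of which stands for 1 captured RNA molecule.

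The 8 samples were frozen gills of a commercial strain, 2 at each of 4 time points. T1 parr had lived in constant light and freshwater since hatching. T2 parr had then spent 8 weeks, by the labels, in a short photoperiod, T3 fish had returned to constant light for 8 weeks, and T4 fish were T3 fish that had been moved to full strength seawater for 24 h. The study's methods give a shorter stay than the labels for both photoperiods. The labels do not say whether the 2 samples of a time point came from separate fish, so the p-values measure the spread between these samples only.

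Chaperones bind unfolded or partly folded proteins and keep them from clumping until they reach their final shape. HSP70 proteins do so with J-domain partners that load them and with exchange factors that unload them, HSP90 proteins act later on selected clients with immunophilins of the FK506-binding family, and TRiC encloses actin, tubulin and other proteins that prefoldin hands over. Many of these genes are transcribed at a steady rate in every cell, whereas some HSP70, small heat shock and BAG genes are known to be induced by heat and other stress. Gill epithelium meets a sharp change of salt when a fish enters seawater.

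The samples held 2770081 to 4383507 UMIs in 1748 to 3373 nuclei, with a median of 638 to 1031 UMIs per nucleus. Nuclei with at least 2500 detected genes held 47.0% of the UMIs of T2 sample 2, against 8.43% to 26.8% in the other 7 samples, so that T2 sample 2 stood apart. From 0 to 6 cell barcodes were shared by any of the 28 pairs of samples. RHCG and COL1A1, on which nuclei were gated below, were present in every sample. RHCG had 1693 to 3802 UMIs per 1000000 UMIs of the sample (CPM), and the 4 copies of COL1A1 had 1416 to 7604 CPM. Some marker sums moved with the time points. COL1A1 had 2315 and 2407 CPM at T1 and 2905 and 1416 CPM at T2. It had 5144 and 6332 CPM at T3 and 7604 and 6415 CPM at T4. COL4A1 had 587 and 604 CPM at T1, 359 and 624 CPM at T2 and 1425 and 965 CPM at T3. T cell markers had 160 and 191 CPM at T1 and 89.4 and 171 CPM at T2. They had 87.9 and 58.9 CPM at T3 and 53.4 and 56.0 CPM at T4. The part of these marker shifts in the results over all nuclei was not tested.

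Chaperone RNA took up a small share of each sample. At T1 the members held 0.439% of the UMIs in sample 1 and 0.407% in sample 2. Their share was 0.472% and 0.385% at T2, then 0.446% and 0.522% at T3, and 0.458% with 0.482% after seawater at T4. The mean share was 0.423 ± 0.0223% in T1, 0.429 ± 0.0615% in T2, 0.484 ± 0.0538% in T3 and 0.470 ± 0.0174% in T4 (SD over 2 samples). The T4 samples lay between the T3 samples, and T2 sample 2 had the lowest value of all 8. Most of that RNA came from 2 genes, hspa8 with 42291 UMIs and hsp90ab1 with 31837. The count tables list a gene only where at least 3 nuclei of a sample had it, and 50 members were listed in all 8 samples, while a member missing from a sample entered the sums as 0.

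**Figure D1:**
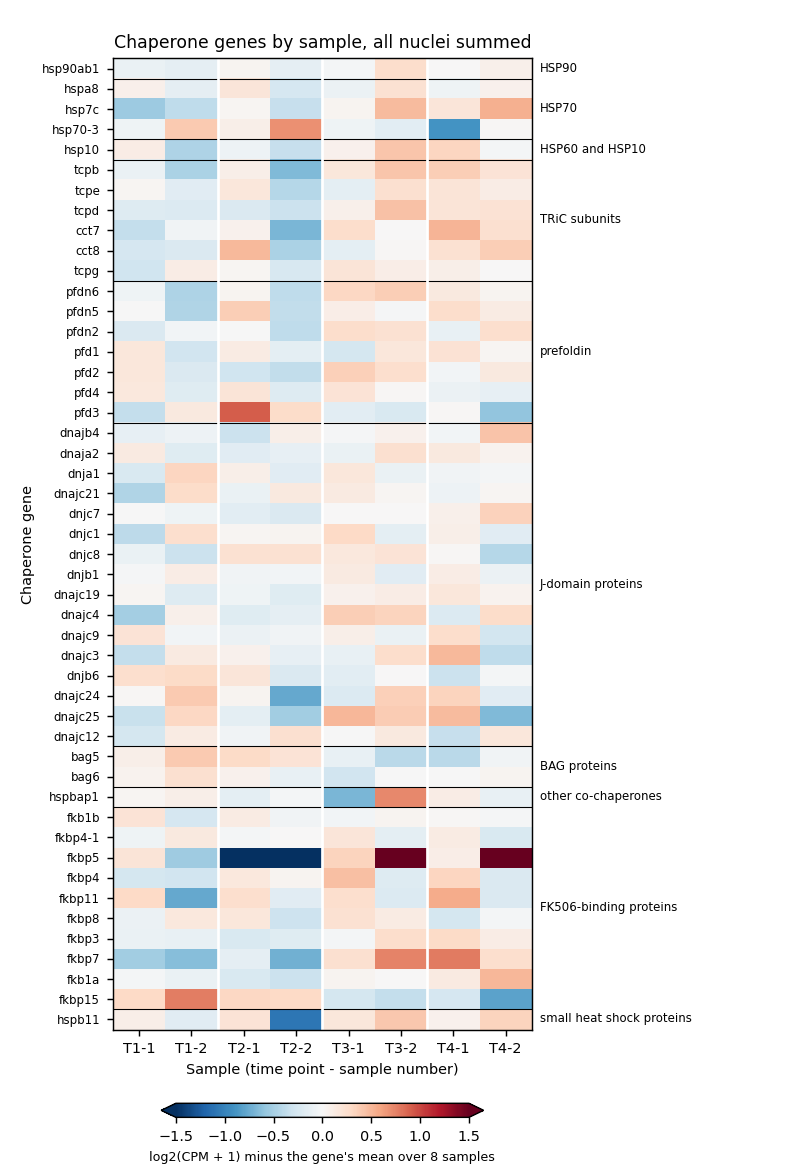
Each row is 1 of the 48 chaperone genes that passed the filter on low counts and each column 1 sample, with log2(CPM + 1) minus the mean of the gene over the 8 samples in colour, which saturates at 1.5. Most rows are pale, and fkbp5 stands out, with both T2 samples low and sample 2 of T3 and of T4 high.

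The main question was how these genes stood after 24 h in seawater, which T4 over T3 addresses. T4 fish were also netted out and moved, and no sample came from fish moved within freshwater. Seawater, handling and the later sampling therefore cannot be told apart. UMIs were summed over all nuclei of a sample and tested with edgeR's quasi-likelihood test, with all 8 samples in 1 fit and the Benjamini-Hochberg adjustment over all 24815 genes that passed the filter. Of the members 48 passed and 12, with 3 to 52 UMIs each over all samples, did not. None of the 48 members had an adjusted p under 0.01, and none of the 24815 genes did (0%). In edgeR 0 of the 48 members had even an unadjusted p under 0.05, against 504 of all genes (2.03%). DESeq2 also called 0 members, but the share of all genes that it called is not given here, so its count cannot be weighed. Over a whole tissue, fewer nuclei of a type and less RNA per nucleus cannot be told apart.

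The log2 fold changes of the members, T4 over T3, lay between -0.43 and 0.37 with a median of -0.04, beside a median of 0.00 over all genes. They were above 0 for 23 members and below 0 for 25. With each sample left out in turn, between 16 and 27 members were above 0. Standard errors were 0.20 to 0.62. The 95% interval of the abundant hsp90ab1 ran from -0.64 to 0.50 and that of the scarce fkb1a from -0.70 to 1.43, so that changes inside these limits could not be told from none with 2 samples a group. Both T4 samples lay above both T3 samples for 5 members, where 13.6% of all genes did so, and below them for 8 members, where 15.9% did.

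**Figure D2:**
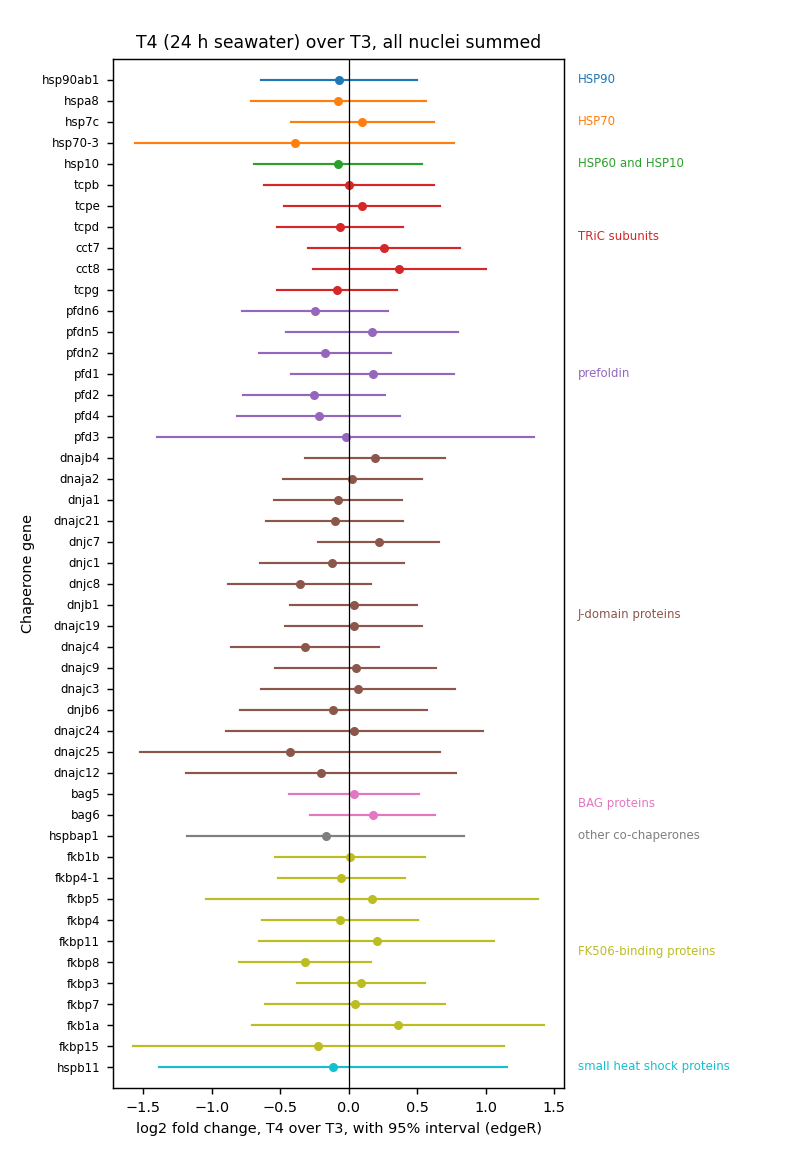
Points are log2 fold changes of the 48 chaperone genes, T4 over T3, with 95% intervals derived from the edgeR test, coloured by family. Every interval includes 0, and the points lie between -0.43 and 0.37.

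The cytosolic HSP90 and HSP70 genes, which gave most of the chaperone RNA, did not differ between T4 and T3 beyond the spread of the samples. hsp90ab1, the constitutive HSP90 beta, had 1171 and 1227 CPM at T4, against 1138 and 1393 CPM at T3, with a log2 fold change of -0.07 (SE 0.26, edgeR adjusted p = 1). Both T4 samples lay between the T3 samples. hspa8, the constitutive HSC70, had 1475 and 1613 CPM at T4, against 1460 and 1811 CPM at T3, with a log2 fold change of -0.08 (SE 0.29, edgeR adjusted p = 1). Its T4 samples lay between the T3 samples too. hsp7c, a further HSC70 copy, had 104 and 133 CPM at T4, against 94.8 and 128 CPM at T3, and these values overlapped. hsp70-3, an HSP70 gene of low level, had 1.83 and 4.33 CPM at T4, against 4.04 and 3.68 CPM at T3, and its log2 fold change of -0.40 (SE 0.53) rested on few UMIs, since only 121 were counted over all samples. HSP70 genes are near copies of each other in sequence, and how their reads were split among hspa8, hsp7c and hsp70-3 is uncertain.

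No chaperonin gene passed the test either. hsp10, the lid of the mitochondrial chaperonin, had 45.4 and 35.4 CPM at T4, against 37.8 and 48.2 CPM at T3. The 6 TRiC subunits among the members were all tested, and 4 had a log2 fold change above 0 and 2 below. tcpb had 122 and 109 CPM at T4, against 106 and 126 CPM at T3, with a fold change of 0.00 (SE 0.28) on the log2 scale. tcpe had 107 and 101.4 CPM at T4, against 84.7 and 111 CPM at T3, so that both T4 samples lay between the T3 samples. tcpd had 90.6 and 91.7 CPM at T4, against 83.3 and 108 CPM at T3, and cct7 had 87.6 and 72.6 CPM at T4, against 73.8 and 61.4 CPM at T3. The largest positive value of all members was that of cct8, with 50.6 and 56.0 CPM at T4, against 38.9 and 43.9 CPM at T3. Its samples did not overlap, yet the log2 fold change of 0.37 (SE 0.29) had an edgeR adjusted p of 1 and an unadjusted p of 0.224. The split of TRiC subunits into 4 and 2 was 3 and 3 with DESeq2, 2 and 4 without T3 sample 1 and 5 and 1 without T3 sample 2.

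Prefoldin, which passes new actin and tubulin chains to TRiC, had 7 members tested, of which 5 lay below 0 and 2 above. pfdn6 had 49.5 and 46.2 CPM at T4, against 55.9 and 58.3 CPM at T3, with a log2 fold change of -0.24 (SE 0.24, edgeR adjusted p = 1). Its T4 samples were the lower ones without overlap. pfdn5 had 39.7 and 36.1 CPM at T4, against 35.5 and 32.5 CPM at T3, and pointed the other way. pfdn2 had 26.0 and 33.6 CPM at T4, against 34.0 and 33.2 CPM at T3, which overlapped. The row pfd2, which may be a second copy of that gene, had 21.2 and 24.2 CPM at T4, against 28.2 and 26.1 CPM at T3. These did not overlap.

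J-domain proteins, which deliver clients to HSP70 and stimulate its ATPase, were the largest family with 22 members, of which 16 were tested, 8 above 0 and 8 below. dnajb4 had 59.3 and 82.3 CPM at T4, against 60.2 and 63.8 CPM at T3. The high value was that of T4 sample 2 alone, and the log2 fold change of 0.19 (SE 0.23) did not pass the test. dnaja2 had 61.1 and 57.4 CPM at T4, against 51.6 and 65.4 CPM at T3. dnja1 had 48.4 and 49.1 CPM at T4, against 56.5 and 47.0 CPM at T3. dnjb1, the orthologue of a gene that heat induces in mammals, had 22.8 and 19.9 CPM at T4, against 23.3 and 18.7 CPM at T3, a log2 fold change of 0.04 (SE 0.21). Among the low members, dnajc25 had the largest absolute value of all, -0.43 (SE 0.50), with 5.93 and 2.17 CPM at T4, against 6.05 and 5.53 CPM at T3. Without T4 sample 2 that value was 0.04. dnjc8, whose human orthologue is found with the splicing machinery, had 24.0 and 17.3 CPM at T4, against 26.5 and 27.3 CPM at T3, with a log2 fold change of -0.36 (SE 0.24, unadjusted p = 0.157).

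BAG proteins and other co-chaperones release clients from HSP70 or bind small heat shock proteins. bag5 had 25.6 and 32.9 CPM at T4, against 31.4 and 25.5 CPM at T3. bag6, which guards proteins bound for membranes, had 29.0 and 30.0 CPM at T4, against 23.6 and 28.9 CPM at T3, with a log2 fold change of 0.17 (SE 0.21). hspbap1 had 7.76 and 6.498 CPM at T4, against 4.04 and 12.3 CPM at T3, where the T3 samples were the lowest and the highest of all 8.

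FK506-binding proteins are prolyl isomerases, and 10 of the 12 were tested. fkb1b, a small isomerase that binds calcium release channels, had 221 and 217 CPM at T4, against 213 and 225 CPM at T3, all within the T3 range, with a log2 fold change of 0.01 (SE 0.25). fkbp4 is listed in 2 rows, which may share reads. The row fkbp4-1 had 89.7 and 69.7 CPM at T4, against 93.4 and 73.7 CPM at T3, and the row fkbp4 had 70.7 and 48.4 CPM at T4, against 77.2 and 49.1 CPM at T3. In all 4 pairs sample 1 was the higher. fkb1a, also a small isomerase, had 3.42 and 4.69 CPM at T4, against 3.17 and 3.07 CPM at T3, a log2 fold change of 0.36 (SE 0.48). fkbp5, an HSP90 partner in steroid receptor complexes, had 49.5 and 177 CPM at T4, against 58.5 and 141 CPM at T3. Its T4 samples lay outside the T3 samples on both sides, and the log2 fold change of 0.17 (SE 0.55) was 0.97 without T3 sample 2, -0.34 without T3 sample 1 and -1.01 without T4 sample 2.

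Small heat shock proteins and bag3 were scarce. Among small heat shock proteins, only hspb11 passed the filter, which in mammals serves in the transport along cilia, with 3.42 and 4.33 CPM at T4, against 3.75 and 4.60 CPM at T3. hspb8, which acts together with bag3 on damaged proteins, had 30 UMIs over all samples, of which 3 and 3 were counted at T4, against 3 and 3 at T3. bag3 itself was listed in only 2 samples, with 3 UMIs in T4 sample 1 and 3 in T2 sample 1. hspb6l had 6 and 4 UMIs at T4, against 6 and 7 UMIs at T3, and hspb7 was listed in 1 sample, T4 sample 1, with 3 UMIs. Of the 60 members, 16 had under 100 UMIs over all samples, and for the 12 of them that were left out of the test a change was not detectable at this depth.

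Further genes of protein folding whose names the pattern of beginnings does not catch were taken from a list of symbols and product names, and 41 of the 56 listed passed the filter. In T4 over T3 none of the 41 was called by edgeR and 1 (2.44%) had an unadjusted p under 0.05, against 2.03% of all genes, 23 lay above 0 and 18 below, and the median log2 fold change was 0.06. That 1 was a locus with the RefSeq symbol dnaja2b, with 18.3 and 20.9 CPM at T4, against 30.8 and 23.9 CPM at T3. Its log2 fold change was -0.48 (SE 0.22, edgeR unadjusted p = 0.0497). grp78, the HSP70 of the endoplasmic reticulum, had 446 and 312 CPM at T4, against 363 and 355 CPM at T3, which overlapped. hspa1b, a locus named by its RefSeq symbol and an orthologue of an HSP70 gene that heat induces in mammals, had 6.16 and 12.3 CPM at T4, against 5.19 and 7.06 CPM at T3, with a log2 fold change of 0.56 (SE 0.53, edgeR adjusted p = 1). hsf1, the transcription factor that drives the heat shock response, had 9.13 and 7.94 CPM at T4, against 11.8 and 12.3 CPM at T3, with a log2 fold change of -0.48 (SE 0.28, edgeR adjusted p = 1). The list also holds hspg2, a proteoglycan of basement membranes and no chaperone.

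The photoperiod comparisons asked whether chaperone levels shifted before the fish met seawater. T1, T2 and T3 followed each other in time, so age and sampling date changed together with the light. Their parts cannot be told apart. In T2 over T1 no member passed an adjusted p of 0.01 in edgeR, where 1 of 24815 genes did (0.00403%), in T3 over T1 no member did, where 31 genes did (0.125%), and in T3 over T2 no member did, where 75 genes did (0.302%). DESeq2 called 0 members in each comparison, again given without its share of all genes. At an unadjusted p under 0.05 in edgeR the members numbered 1, 5 and 5 in these comparisons in turn. In T2 over T1 the 1 member was 2.08% of those tested, against 7.06% of all genes. In T3 over T1 the 5 members were 10.4% of those tested, against 16.2% of all genes, and in T3 over T2 they were 10.4%, against 17.8% of all genes. Without the filter on low counts edgeR called 1 of the 60 members in T2 over T1 (fkbp5), where 0.768% of all genes were called, 2 in T3 over T1 (fkbp5 and fkbp7), where 3.43% were, 1 in T3 over T2 (fkbp5), where 3.85% were, and 0 in T4 over T3, where 0.148% were.

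Between T3 and T1 more members lay above 0 than below. In that comparison 35 of 48 members had a log2 fold change above 0, with a median of 0.12, whereas 50.0% of all genes lay above 0, with a median of 0.00. The number above 0 was between 28 and 37 under all alternatives, with 28 without T1 sample 2 and 37 in nuclei with 200 or more and fewer than 2500 genes. The median was 0.27 without T1 sample 1, 0.18 without T3 sample 1 and in those nuclei, and 0.05 without T1 sample 2. Both T3 samples lay above both T1 samples for 21 members, where 25.2% of all genes did so, and below them for 4 members, where 20.9% did. The 6 TRiC subunits among the members were all above 0, with a median of 0.26, and 5 of 6 were without T1 sample 2 or without T3 sample 2. In T3 over T2, which shares the T3 samples, 28 of 48 members were above 0. There both T3 samples lay above both T2 samples for 17 members, where 30.6% of all genes did so, and below them for 5, where 19.6% did. These counts describe the members and were given no test of their own.

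The T3 over T1 values nearest to the threshold belonged to genes of several families, named after their values were seen. fkbp7, an isomerase of the endoplasmic reticulum, had 19.3 and 27.9 CPM at T3, against 10.99 and 10.02 CPM at T1, with a log2 fold change of 1.12 (SE 0.32, edgeR adjusted p = 0.108). Over all samples it had 82.7 CPM in the COL1A1 gate described below and 12.4 CPM in ungated nuclei. The COL1A1 gate held 2.35% and 3.38% of nuclei at T1, against 6.92% and 8.67% at T3. Within that gate fkbp7 had 73.1 and 113 CPM at T3, against 76.0 and 29.3 CPM at T1, which overlapped. In ungated nuclei it had 15.2 and 16.5 CPM at T3, against 7.31 and 7.39 CPM at T1. The part of the gate's size in the fkbp7 change was not tested. hsp7c had 94.8 and 128 CPM at T3, against 62.7 and 70.5 CPM at T1, with a log2 fold change of 0.71 (SE 0.24, edgeR adjusted p = 0.167). bag5 went the other way, with 31.4 and 25.5 CPM at T3, against 36.5 and 45.3 CPM at T1, and a log2 fold change of -0.55 (SE 0.21, edgeR adjusted p = 0.235). In each of these genes the T3 and T1 samples did not overlap, and in none did the difference pass 0.01. Without the filter on low counts fkbp7 passed (edgeR adjusted p = 0.00757). That fit called 3.43% of all genes, against 0.125% with the filter. hspa8 had 1460 and 1811 CPM at T3, against 1627 and 1410 CPM at T1, and hsp90ab1 had 1138 and 1393 CPM at T3, against 1089 and 1062 CPM at T1.

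fkbp5 had the largest absolute log2 fold change of all members in each of the 3 photoperiod comparisons. It had 52.8 and 31.4 CPM at T1, 12.3 and 12.6 CPM at T2, 58.5 and 141 CPM at T3 and 49.5 and 177 CPM at T4. The T2 samples were the lowest and lay close together, and sample 2 was far above sample 1 at T3 and at T4. In T3 over T2 the log2 fold change was 2.92 (SE 0.63), with an edgeR adjusted p of 0.0425, which missed 0.01 and passed 0.05, as 2.29% of all genes did. In nuclei with fewer than 2500 genes it was 2.78 (edgeR adjusted p = 0.0623). In T2 over T1 it was -1.73 (SE 0.63, edgeR adjusted p = 0.635), and in T3 over T1 it was 1.19 (SE 0.57, edgeR adjusted p = 0.336). In mammals fkbp5 is known as a gene that the glucocorticoid receptor switches on.

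A second locus annotated as FKBP5-like, LOC106565346, which is not a member, ran through the samples in the same order of time points. It had 74.8 and 36.3 CPM at T1, 14.0 and 21.6 CPM at T2, 83.6 and 201 CPM at T3 and 72.3 and 260 CPM at T4. Its log2 fold change in T3 over T2 was 2.90 (SE 0.66, edgeR adjusted p = 0.04997), and it missed 0.01 as well. How reads were split between the 2 loci is uncertain. Among the 41 other folding genes tested, 3 (7.32%) passed 0.05 in T3 over T2, against 2.29% of all genes, namely LOC106565346, hs90a and an HSP70 12A-like locus. None passed 0.01, and 10 (24.4%) had an unadjusted p under 0.05, against 17.8% of all genes. The proteoglycan hspg2, which is no chaperone, was among these 10 (edgeR unadjusted p = 0.0117). hs90a, the inducible HSP90 alpha, had 17.3 and 23.0 CPM at T3, against 5.96 and 5.21 CPM at T2, with a log2 fold change of 1.77 (SE 0.31, edgeR adjusted p = 0.0212). The 12A-like locus had 8.36 and 11.4 CPM at T3, against 1.05 and 2.23 CPM at T2, with a log2 fold change of 2.41 (SE 0.48, edgeR adjusted p = 0.0326). Its T2 values rested on few UMIs, and it passed the filter on low counts through samples other than those at T2. Its place among the 3 that passed 0.05 is therefore a description, not independent support.

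**Figure D3:**
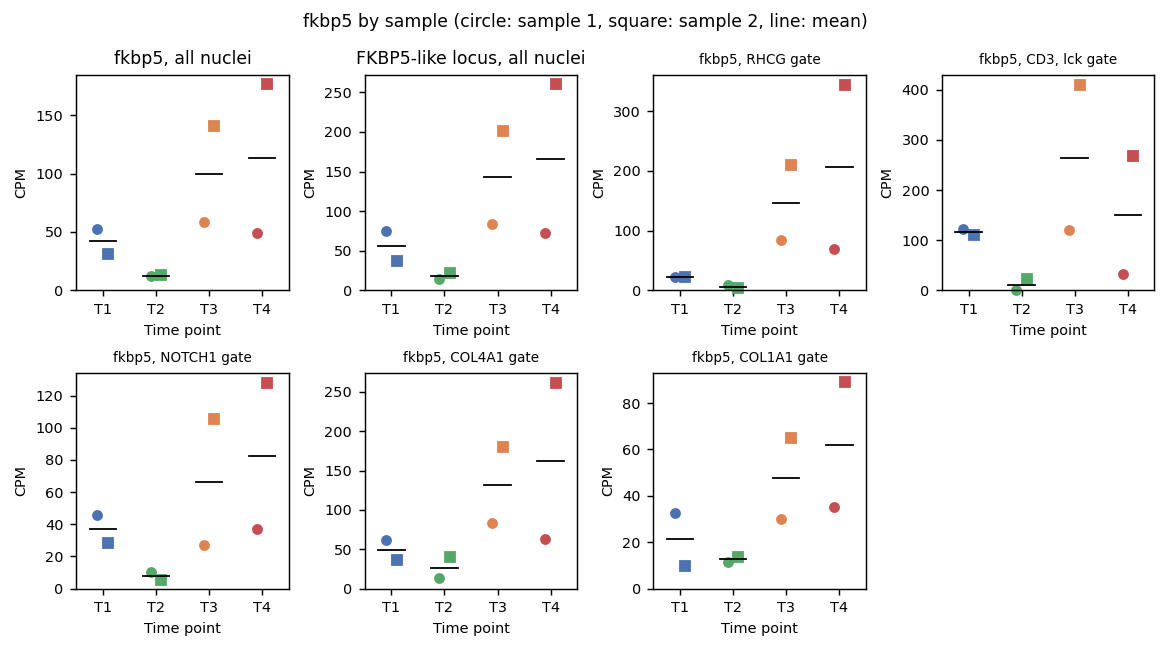
CPM of fkbp5 by time point in all nuclei and in 5 marker gates, with the FKBP5-like locus in all nuclei beside it, circles for sample 1, squares for sample 2 and lines for the mean of the 2 samples. In all nuclei T2 lies at 12.3 and 12.6 CPM, and sample 2 is the higher at T3 and at T4 in every panel.

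To see where in the gill these genes were transcribed, nuclei were gated on marker genes. A nucleus was given to the gate with the highest share of marker UMIs relative to all nuclei, if that ratio was at least 3 and the nucleus held at least 2 marker UMIs. The RHCG gate held 1412 nuclei, the COL4A1 gate 1637, the COL1A1 gate 1121, the NOTCH1 gate 666 and the gate on T cell markers 411, and each of these 5 had at least 10 nuclei in every sample. Smaller gates on Muc5ac, otospiralin, flt3 and vascular markers held 208, 129, 123 and 46 nuclei, and 12289 nuclei (62.4%) passed no gate. The gates rest on few markers and are named by them, and no cell type was assigned.

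Within the gates, too, no chaperone gene passed the test between T4 and T3. The T4 over T3 comparison could be fitted in 7 gates with 4 to 25 members tested, and edgeR called 0 members in all 7. Of all genes it called 1 in the NOTCH1 gate (0.02%) and 0 (0%) in the other 6. DESeq2 called 0 members there as well, given without its share of all genes. In edgeR 1 of 97 tests of a member had an unadjusted p under 0.05. It was that of pfdn6 in the NOTCH1 gate, with a log2 fold change of -1.35 (SE 0.60, edgeR adjusted p = 0.999). Of the tests of all genes in these gates 3.20% had an unadjusted p under 0.05.

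hspa8 in RHCG-gated nuclei had 1024 and 1088 CPM at T4, against 903 and 1264 CPM at T3. In the COL1A1 gate it had 1695 and 1949 CPM at T4, against 1772 and 2111 CPM at T3. The samples overlapped in both gates. In the NOTCH1 gate 17 of 20 members lay below 0 and 3 above, with a median of -0.35 beside 0.00 over all genes of the gate, and there hspa8 had 1427 and 1775 CPM at T4, against 1490 and 2680 CPM at T3. That balance rested on the high T3 sample 2, since without it 13 members of 24 tested lay above 0 and 11 below, with a median of 0.07, and at a gate ratio of at least 5 there were 7 above and 6 below of 13. In the otospiralin gate all 7 members tested lay above 0, with a median of 0.31 beside 0.02 over all genes. In the Muc5ac gate all 4 tested lay below 0, with a median of -0.55 beside 0.00. Above 0 lay 6 of 19 members in the RHCG gate and 8 of 18 in the COL4A1 gate. In the COL1A1 gate 11 of 25 did, and in the T cell marker gate 2 of 4. These balances were not tested.

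In T3 over T2, a comparison within gates that was added after the values over all nuclei had been seen, 6 gates could be fitted and fkbp5 was the only member called in any. In RHCG-gated nuclei it had 83.6 and 210 CPM at T3, against 8.03 and 4.24 CPM at T2, from 20 and 70 UMIs at T3 and 2 and 3 UMIs at T2. These nuclei differed in depth, with a median of 666 and 4083 UMIs at T2, against 990 and 1168.5 UMIs at T3. The part of that depth in the change was not tested. The log2 fold change of fkbp5 was 4.59 (SE 0.76, edgeR adjusted p = 0.0018), and 88 of 6334 genes were called in that gate (1.39%), 1 of 19 members among them. Without T2 sample 2 the adjusted p was 0.0285, which ends the call, and with a gate ratio of at least 5 only 2 members were tested and none was called. edgeR called no member in the other 5 gates. DESeq2 called none there either, although it gave fkbp5 no adjusted p in the NOTCH1 gate, and its share of all genes is not given. In those gates edgeR called 0.501% of all genes in the NOTCH1 gate, 0.412% in the Muc5ac gate and 0.35% in the COL1A1 gate. It called 0.191% in the COL4A1 gate and 0% in the T cell marker gate. Of 90 tests of a member in these 6 gates 6 (6.67%) had an unadjusted p under 0.05, against 10.9% of the tests of all genes, and the p-values were not adjusted over gates.

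In the 5 gates that tested it fkbp5 had 4 to 70 UMIs per sample at T3, against 0 to 8 UMIs at T2. It thus passed the filter there through samples other than those at T2. The direction it had in these gates and its call in the RHCG gate are therefore descriptions, not independent support. Besides the RHCG gate, the log2 fold change in T3 over T2 was 3.66 (SE 1.21) in the T cell marker gate, 3.26 (SE 0.96, edgeR adjusted p = 0.124) in the NOTCH1 gate, 1.89 (SE 0.76) in the COL4A1 gate and 1.87 (SE 0.88) in the COL1A1 gate. The gates are parts of the same samples. Whether the change differed between gates was tested in 1 joint fit of the 4 gates other than the T cell one, over 9144 genes and 28 members. The change of fkbp5 in the RHCG gate exceeded the mean of the other 3 gates by 2.16 on the log2 scale (SE 0.82, edgeR adjusted p = 0.374), and so was not shown to differ. None of the 8 tests of a gate and a comparison called a member at 0.01. For T3 over T2 they called 0.109% of all genes in the RHCG gate, 0.109% in the COL1A1 gate and 0% in the others, and for T4 over T3 they called 0.0109% in the COL4A1 gate and 0% in the others, while 0 to 1 of the 28 members per test had an unadjusted p under 0.05, against 2.55% to 8.16% of all genes.

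The 12 most abundant members were compared between the 5 gates. hspa8 averaged 2165 ± 703 CPM in the T cell marker gate and 1878 ± 231 CPM in the COL1A1 gate, and was lowest in the RHCG gate with 1023 ± 171 CPM (SD, n = 8). hsp90ab1 averaged 1551 ± 379 CPM in the NOTCH1 gate, 1504 ± 292 CPM in the T cell marker gate and 759 ± 90.3 CPM in the RHCG gate. These SDs include the time points. The RHCG gate was the lowest for 8 of the 12 members, among them the TRiC subunits tcpb, tcpe, tcpd and cct7. tcpb averaged 40.9 ± 10.4 CPM there, against 152 ± 48.8 CPM in the NOTCH1 gate. The lowest place was not tested. How many of all genes were lowest in the RHCG gate was not counted, so the 8 cannot be read as a trait of the chaperone genes.

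For each of the 12 the gate with the highest mean was set against the next by an exact sign-flip permutation test over the 8 samples, two-sided, with the gates picked by their level, and none passed 0.05 after adjustment over the 12. fkb1b came nearest, with 306 ± 30.1 CPM in the COL1A1 gate and 246 ± 62.9 CPM in the T cell marker gate, higher in 7 of 8 samples (exact p = 0.0156, adjusted p = 0.0938). dnajb4 had 102 ± 29.4 CPM in the COL4A1 gate and 67.1 ± 30.6 CPM in the NOTCH1 gate, higher in 7 of 8 samples (exact p = 0.0156, adjusted p = 0.0938). fkbp5 averaged 135 ± 139 CPM in the T cell marker gate and 95.4 ± 121 CPM in the RHCG gate, where the SD exceeded the mean. The smallest p that 8 samples allow is 0.00781.

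**Figure D4:**
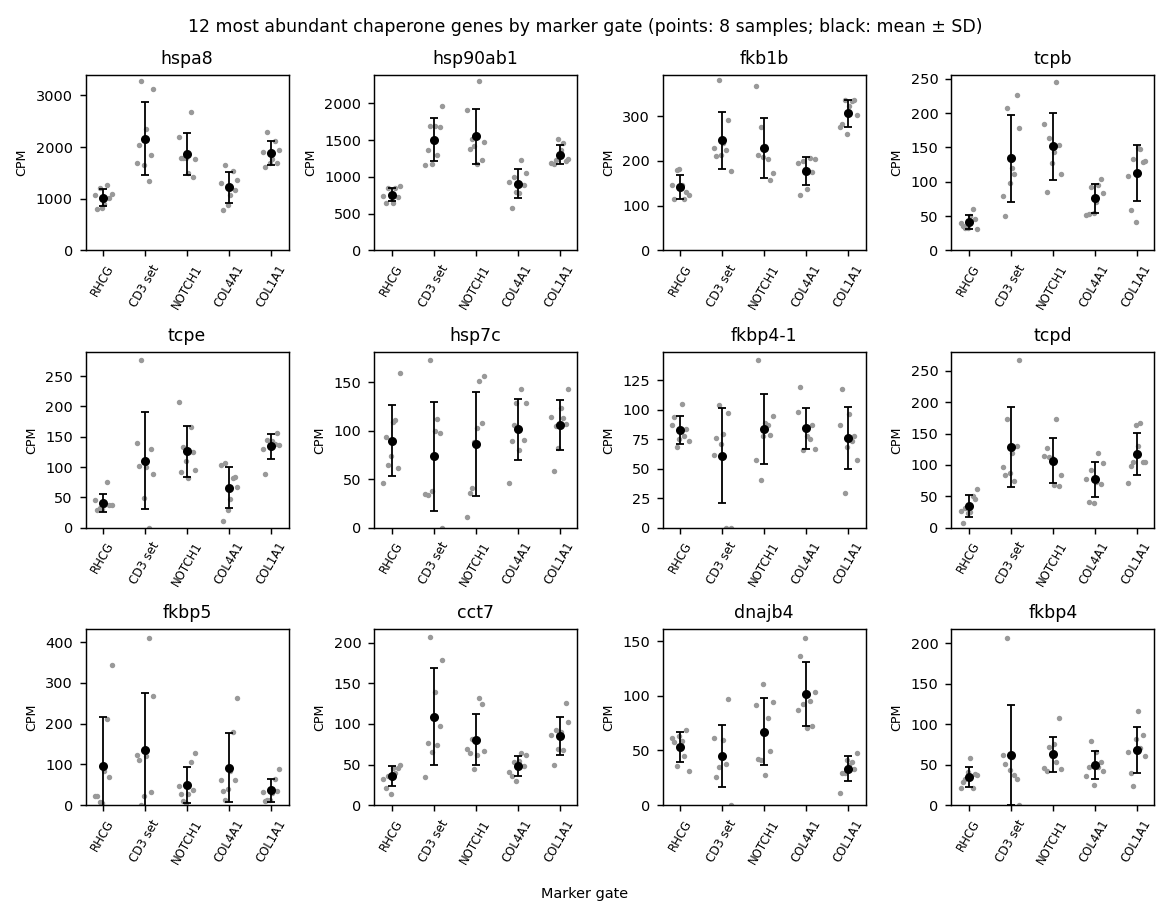
CPM of the 12 most abundant chaperone genes in 5 marker gates, with grey points for the 8 samples and black points for the mean ± SD; the gates are named by their markers. hspa8, hsp90ab1 and the TRiC subunits among the 12 are lowest in the RHCG gate, which was not tested. The highest gate is not set apart from the next by the test.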

How the data were processed

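Nuclei of frozen gills were captured with the 10x Chromium 3′ kit. The authors deposited whole-number UMI counts per gene and nucleus, made with Cell Ranger and aligned to ICSASG_v2 with the NCBI Salmo salar Annotation Release 100, without normalization. The protocol names Cell Ranger 3.1.0 and the submitters' processing notes 3.0.1. Chaperone members and gene lists were chosen with earlier results of these data known.

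All 19709 deposited nuclei were kept, doublets were not removed, and a nucleus past several gates went to the one with the highest ratio. From these counts UMIs were summed per sample, or per gate and sample with at least 10 nuclei, since nuclei are not replicates. edgeR 4.0.16 in R 4.3.3 was used (TMM, filterByExpr with a minimum count of 10, quasi-likelihood test, all time points in 1 fit, threshold 0.01), and was tested on simulated data. DESeq2 1.42.0 was an alternative. CPM are UMIs per 1000000 UMIs of the sample or gate, without TMM factors. The place of a gene among gates was tested with scipy 1.17.1 on log2(CPM + 1). Alternatives were other size factors, DESeq2, no filter, a replicate block, fewer nuclei or genes, stricter gates, another threshold or pseudocount and each sample left out. The cd2 and rhag markers had no row in the tables used here.

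Named were members past the threshold, the 5 largest absolute T4 over T3 changes, the 3 most abundant of each family and the 12 most abundant overall. dnjb1, hspb7, pfd2, fkbp7, hsp7c and bag5 in T3 over T1, pfdn6 in the NOTCH1 gate and the non-member genes were named after their values were seen. T3 over T2 within gates and the joint test of gates were added then too. In all, 13 fits within gates are reported. A further gate kept its nuclei apart from the others but is not reported here, and tests between gates leave it out, a choice made after results were seen. No column of the tables was left unmapped (0). RefSeq symbols were looked up for loci without a symbol, and these were added to the list of other folding genes after the tables had been opened, as were 2 hemoglobin genes to the hemoglobin list.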

Additional observations from a re-analysis of the deposited data

How the results depend on the processing

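Apart from the fits that left a sample out in turn, no member was called in T4 over T3 under any alternative, over all nuclei or within a gate. Over all nuclei edgeR called 0% of all genes in that comparison with the filter on low counts and 0.148% without it. The share of all genes called under the other alternatives is not given here, so the absence of members cannot be weighed. Without the filter on low counts edgeR called 1 member in T2 over T1 (fkbp5), where 0.768% of all genes were called. It called 2 in T3 over T1 (fkbp5 and fkbp7), where 3.43% were, and 1 in T3 over T2 (fkbp5), where 3.85% were. Dropping the filter raised the genes called from 31 to 1183 in T3 over T1 and from 75 to 1328 in T3 over T2. For fkbp5 in T3 over T2 the log2 fold change was 2.92 in both fits. Its edgeR adjusted p was 0.0425 with the filter and 2.3e-13 without it. The calls without the filter therefore depend on that setting. With the filter, a threshold of 0.05 called 1 member in T3 over T2, where 2.29% of all genes were called. The adjusted p of fkbp5 in T3 over T2 was 0.0133 with DESeq2 and 0.0225 to 0.250 with each sample left out. In the RHCG gate the T3 over T2 count was 0 at a gate ratio of 5, where 2 members were tested. The call of fkbp5 there did not hold with every sample left out, and its log2 fold change was then 3.75 to 5.09. In the NOTCH1 gate, where no member was called with all samples, a member was called in some of the fits that left out a sample. The share of all genes called in the fits with a sample left out is not given here, so these calls cannot be weighed. The causes were not tested.

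In T4 over T3, leaving out each sample in turn gave log2 fold changes of -1.40 to 0.043 for dnajc25, -1.06 to 0.17 for hsp70-3, -0.24 to 0.11 for hspa8, -0.23 to 0.11 for hsp90ab1 and -1.01 to 0.97 for fkbp5. The difference between the leading gates turned round at a gate ratio of 5 for hsp90ab1 (-0.075), hsp7c (-0.069), tcpd (-0.10), cct7 (-0.85) and fkbp4 (-0.63), and in nuclei with fewer than 2500 genes for hsp90ab1 (-0.046), tcpd (-0.91), cct7 (-0.80) and fkbp4 (-0.11), on the log2 scale.

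Deviations of samples with the same number from the mean of their time point were compared over 6 pairs of time points. The correlation was 0.20 for T3 with T4, the main comparison, and -0.05 to 0.04 for the other pairs. The numbers were not taken to pair the samples. In T4 over T3, 22 members lay above 0 and 26 below with the replicate number as a block. With the replicate number as a block the T3 over T2 change of fkbp5 was 2.835 over all nuclei (adjusted p = 0.0392), and the block changed no call. The 2 samples per time point and the few UMIs of scarce members limit what could be detected.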
